A study of Mus musculus with 12 samples.

Results

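Astrocytes take up, degrade and sense the inhibitory transmitter GABA, and 9 genes of that handling were examined: the transporters Slc6a11 (GAT-3) and Slc6a13 (GAT-2), the enzymes Abat, Aldh5a1 and Maob, the GABA-B receptor subunits Gabbr1 and Gabbr2, and the GABA-A receptor subunits Gabra2 and Gabrb1. They were taken by name and matched to 1 Ensembl mouse identifier each. All 9 were in both deposited count tables, out of 27866 genes in the astrocyte table, 30359 in the microglia table and 25442 in both. The libraries came from the hippocampus of male C57Bl6/J mice that received 1 of the 2 vectors by bilateral injection into CA1 at 2 months of age and were studied 2 months later, at 4 months. The control vector was AAV2/9-GfaABC1D-Bglob-GFP-WPRE (AAV-GFP) and the other was AAV2/9_GfaABC1D-Bglob-A2AR-WPRE (AAV-A2A), which carries the adenosine A2A receptor. GfaABC1D, a short form of the GFAP promoter, is described by the study as selective for astrocytes. Every animal carried one of these vectors, so no group was free of virus. Cells were pulled from whole dissociated hippocampi with beads against the astrocyte surface antigen ACSA-2, and the cells that did not bind were then pulled with beads against the myeloid antigen CD11b, so both fractions hold cells from outside the injected field. Each fraction had 3 AAV-GFP and 3 AAV-A2A libraries, named here by vector and number, such as GFP-303 and A2A-309. The study describes the astrocyte libraries of a group as separate animals, which the labels do not state for either fraction, and p-values measure the spread between these libraries.

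GABA that escapes from synapses is carried back into cells by sodium-coupled transporters of the SLC6 family. GAT-3 is the carrier most typical of astrocytes, while GAT-2 is best known from the meninges and blood vessels. Inside the cell GABA transaminase (Abat) passes the amino group of GABA to 2-oxoglutarate, and succinic semialdehyde dehydrogenase (Aldh5a1) oxidises the product to succinate for the citric acid cycle. Astrocytes can also form GABA from putrescine, a route in which monoamine oxidase B (Maob) takes part. GABA acts on pentameric GABA-A receptors, which are chloride channels, and on GABA-B receptors, obligate pairs of Gabbr1, which binds the ligand, and Gabbr2, which couples to G proteins.

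The transporter genes are shown first by their upstream sequence. They are related genes of chromosome 6 whose vector differences were unlike in the ACSA-2 fraction. Whether the sequence has a part in that was not tested. In GRCm38 coordinates from the GENCODE annotation, Slc6a11 (ENSMUSG00000030307) lies on the plus strand at chr6:114131241-114249952 and Slc6a13 (ENSMUSG00000030108) on the plus strand at chr6:121300227-121337733. Slc6a12, the betaine and GABA transporter, lies 5.34 kb from Slc6a13 with no protein-coding gene between. The stretches below are from RefSeq (GRCm38.p6), plus strand, from 250 to 62 bases before the first RefSeq start site (114131241 for Slc6a11 and 121300288 for Slc6a13). The end at 62 leaves out the annotated exon of Slc6a13 that starts at 121300227. The same end was used for Slc6a11, whose start is the same in both annotations. Capitals mark the GC box GGGCGG.
Slc6a11, chr6:114130991-114131179: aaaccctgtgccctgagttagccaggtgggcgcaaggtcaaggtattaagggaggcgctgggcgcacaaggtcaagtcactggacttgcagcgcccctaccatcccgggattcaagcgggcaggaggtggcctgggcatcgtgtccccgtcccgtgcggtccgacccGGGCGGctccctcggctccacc
Slc6a13, chr6:121300038-121300226: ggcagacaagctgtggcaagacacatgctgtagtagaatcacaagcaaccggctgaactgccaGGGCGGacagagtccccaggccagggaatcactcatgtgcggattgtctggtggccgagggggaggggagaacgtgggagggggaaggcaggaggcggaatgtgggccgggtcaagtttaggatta

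Each stretch held 1 GGGCGG, at 83 to 78 bases upstream in Slc6a11 and at 187 to 182 in Slc6a13. On either strand 22.6% of 32851 windows of the same 189 bases before RefSeq start sites held that motif. The cAMP response element TGACGTCA (0.685% of windows), its core TGACG, which is part of it (11.6%), and the TATA box TATAAA (8.69%) were in neither stretch. The stretches and windows end 62 bases before the start site, so a motif closer to it, such as a TATA box, could not be found. Whether either gene has a TATA box there was not tested. The Slc6a11 stretch was 66.7% G and C with 14 CG pairs, and the Slc6a13 stretch 59.8% with 7. Of the 9 genes 7 had an entry in the promoter table, and Abat and Maob had none.

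Total counts ran from 33937067 to 53206974 per library. Adora2a, the gene of the A2A receptor, reached 757, 656 and 945 CPM (read counts scaled to a common library size) in the AAV-A2A libraries A2A-309, A2A-310 and A2A-313 of the ACSA-2 fraction against 24.5, 23.0 and 25.1 in the AAV-GFP libraries GFP-303, GFP-306 and GFP-307, a log2 fold change of 5.02 (adjusted p = 1.55e-05, edgeR), in which vector and endogenous transcripts are not separated. In the CD11b fraction Adora2a averaged 25.8 CPM with AAV-A2A and 5.61 with AAV-GFP and was not called (log2 difference 2.20, edgeR, adjusted p = 0.28). The source of these transcripts was not tested. The 12 astrocyte markers summed to between 24719 and 40083 CPM in the 6 ACSA-2 libraries and to between 295.6 and 591.6 in the 6 CD11b libraries, and the 10 microglia markers to between 289.5 and 522.7 and between 8388 and 62489. In 3 of the CD11b libraries, A2A-2347, GFP-2328 and GFP-2329, the choroid plexus transcript Ttr stood at 27421, 72380 and 59170 CPM, against 5.04 to 77.2 in A2A-2343, A2A-2344 and GFP-2331, and the microglia markers summed to at most 23972 CPM against at least 50510. These libraries are called Ttr-rich below, and most log2 differences that rest on CD11b libraries are given with and without them. The difference in vector effect between fractions is given without them for Slc6a11 alone. In sorted bulk material, fewer cells of a type and less RNA per cell cannot be told apart.

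In the AAV-GFP libraries of the ACSA-2 fraction Slc6a11 was the most abundant of the 9 transcripts and the receptor subunits Gabra2 and Gabbr2 were the least. Levels between genes were compared as CPM per kb of merged exon, and all values of a group are the mean ± SD of 3 libraries. Slc6a11 stood at 167 ± 24.4 CPM per kb, above 98.2% of 16441 genes tested. Maob followed at 64.7 ± 3.71, Abat at 50.6 ± 8.18 and Slc6a13 at 42.8 ± 12.7. Abat and Slc6a13 overlapped between libraries (42.1 to 58.4 against 30.9 to 56.2 CPM per kb), while the steps from Slc6a11 to Maob and from Maob to Abat had no overlap. Below them came Gabrb1 at 22.8 ± 2.21, Gabbr1 at 9.93 ± 1.18 and Aldh5a1 at 8.10 ± 0.299, each separate from its neighbours. Gabra2 (2.06 ± 0.955) and Gabbr2 (1.47 ± 0.511) overlapped. With the longest transcript as the length, Abat came before Maob and the other 7 genes stayed in place.

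In the AAV-A2A libraries of the ACSA-2 fraction that order changed at the top. Maob led at 72.1 ± 20.2 CPM per kb, with Slc6a11 at 43.4 ± 17.0, Slc6a13 at 41.8 ± 11.2, Gabrb1 at 26.4 ± 5.76 and Abat at 19.3 ± 4.52, and each of these overlapped with the next over its libraries. The last 4 places were as in AAV-GFP, Gabbr1 at 10.4 ± 1.06, Aldh5a1 at 4.82 ± 0.427, Gabra2 at 1.68 ± 0.272 and Gabbr2 at 1.41 ± 0.301.

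The comparison of vectors within the ACSA-2 fraction asks how the transcripts of this astrocyte-enriched fraction differ when the A2A receptor is raised. Of the 9 genes, 2 were lower in AAV-A2A, Slc6a11 and Abat, and 0 were higher (edgeR quasi-likelihood test, Benjamini-Hochberg adjusted p under 0.05 and a log2 change over 0.32 in size). Of all 16451 genes tested, 3.19% were called lower. The AAV-A2A and AAV-GFP values did not overlap for 3 of the 9, Aldh5a1 being the third, against 19.6% of all genes tested. The median log2 change of the 9 was -0.06, beside 0.02 over all genes tested. At an unadjusted p under 0.05 there were 3 of the 9, beside 13.0% of all genes tested, and DESeq2 called 3, with Aldh5a1 added, beside 4.58% of 27866 genes.

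With AAV-GFP, Slc6a11 read 713 CPM in GFP-303, 957 in GFP-306 and 866 in GFP-307. With AAV-A2A it read 296 CPM in A2A-309, 127 in A2A-310 and 235 in A2A-313. Every AAV-A2A library was below every AAV-GFP library. The log2 fold change was -1.95 ± 0.293 (SE), with a 95% interval of -2.61 to -1.29, a 3.86-fold fall (edgeR, adjusted p = 0.00639). Of the 16451 genes tested, 185 had a smaller adjusted p. Leaving out each library in turn kept the call, with log2 changes from -2.22 to -1.67. In 1 fit of all 12 libraries of both fractions it was -1.97 and not called (edgeR, adjusted p = 0.0883), and without the 3 Ttr-rich libraries that fit called it (adjusted p = 0.0343).

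Slc6a13 read 89.9, 120 and 163 CPM with AAV-GFP and 116, 156 and 91.8 with AAV-A2A. The groups overlapped fully, and the log2 difference of -0.04 had a 95% interval of -0.63 to 0.55 (edgeR, adjusted p = 0.983). Dcn, the most abundant gene of the vascular and leptomeningeal fibroblast markers, read 107, 124 and 194 CPM with AAV-GFP and 134, 155 and 96.0 with AAV-A2A, highest in GFP-307 and A2A-310 like Slc6a13. The 8 markers of that list summed to between 215 and 341 CPM with AAV-GFP and between 167 and 267 with AAV-A2A. The 8 mural markers summed to between 4900 and 5000 CPM and between 3688 and 5254. The part of those cells in the Slc6a13 values was not tested. Slc6a12 was near the floor, at 1.201, 1.72 and 3.56 CPM with AAV-GFP and 1.03, 3.48 and 2.44 with AAV-A2A. Slc6a6, the taurine transporter of the same family, stood at 88.3 ± 23.1 CPM with AAV-GFP and 64.97 ± 12.99 with AAV-A2A, with overlap (log2 difference -0.44, edgeR, adjusted p = 0.4996).

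Added up per kb, Slc6a11, Slc6a13 and Slc6a12 came to 173, 231 and 229 CPM per kb with AAV-GFP and to 98.9, 79.9 and 79.0 with AAV-A2A. Slc6a11 made up 79.5% ± 3.99 of that sum with AAV-GFP and 49.9% ± 16.0 with AAV-A2A, with no overlap (74.9 to 81.9% against 31.4 to 59.3%). The share of Slc6a13 was 20.1% ± 3.83 and 49.2% ± 15.6. Per kb there were 3.05 to 4.58 Slc6a11 reads for each Slc6a13 read with AAV-GFP and 0.467 to 1.47 with AAV-A2A, where A2A-310 held more Slc6a13 than Slc6a11. These shares follow from the levels above and were not tested on their own.

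**Figure D1:**
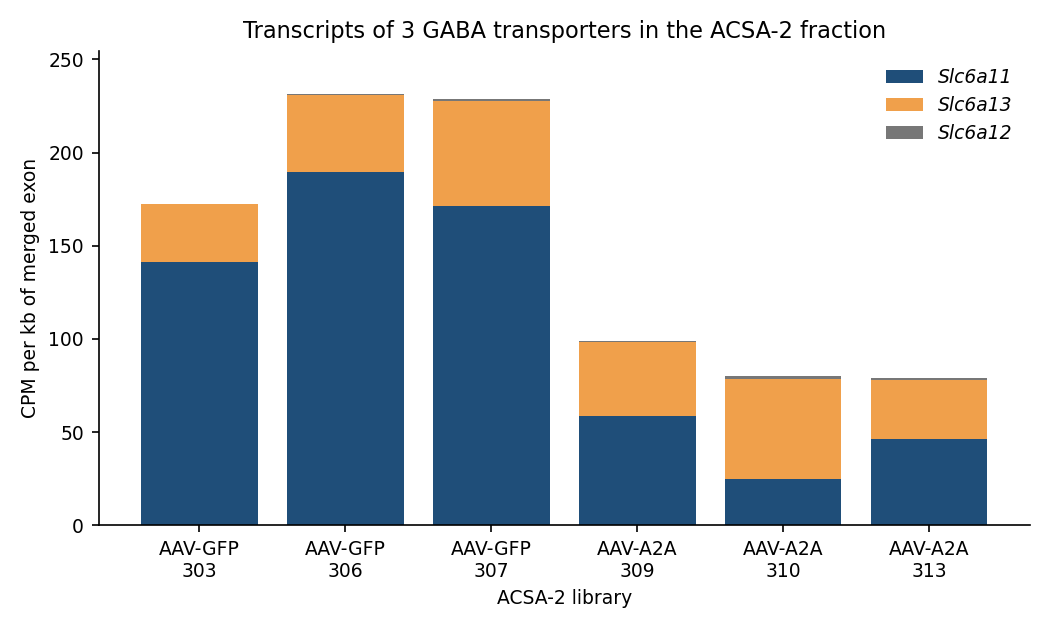
Stacked bars of CPM per kb of merged exon for Slc6a11, Slc6a13 and Slc6a12 in each ACSA-2 library (x axis, 3 AAV-GFP and 3 AAV-A2A). The bars reach 173 to 231 with AAV-GFP and 79.0 to 98.9 with AAV-A2A, with the Slc6a11 segment shorter and the Slc6a13 segment of like height.

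The enzymes that break GABA down were lower as well, though only the first passed the test. Abat (ENSMUSG00000057880, plus strand, chr16:8513429-8621568) read 326, 397 and 452 CPM with AAV-GFP and 154, 113 and 182 with AAV-A2A. All 3 AAV-A2A libraries were below all 3 AAV-GFP libraries, with A2A-310 the lowest, as for Slc6a11. The log2 fold change was -1.39 ± 0.219 (SE), 95% interval -1.88 to -0.90, a 2.62-fold fall (edgeR, adjusted p = 0.00815), and the call held on leaving out each library in turn (-1.56 to -1.22). In the fit of all 12 libraries it was -1.42 and not called (edgeR, adjusted p = 0.839), and without the Ttr-rich libraries it was called (adjusted p = 0.0368).

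Aldh5a1 (ENSMUSG00000035936, minus strand, chr13:24907579-24937661) read 47.6, 44.3 and 45.3 CPM with AAV-GFP and 25.4, 26.2 and 29.9 with AAV-A2A. The groups were far apart compared with the spread in each, but the log2 difference of -0.75 (95% interval -1.20 to -0.30) did not pass over all genes (adjusted p = 0.0888, edgeR), and DESeq2 gave an adjusted p of 0.00216. Of its exon bases, 14.1% overlap 4932702P03Rik and 3.59% overlap 9330162012Rik on the opposite strand, and with a library kit that does not mark strand such reads cannot be assigned, so its level is uncertain. Abat and Aldh5a1 act in sequence, and per kb there were 4.99 to 7.28 Abat reads for each Aldh5a1 read with AAV-GFP and 3.13 to 4.44 with AAV-A2A.

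Maob (ENSMUSG00000040147, minus strand, chrX:16709282-16817366) read 171, 178 and 192 CPM with AAV-GFP and 154, 186 and 264 with AAV-A2A. The AAV-GFP values lay inside the AAV-A2A range, and the log2 difference of 0.16 had a 95% interval of -0.32 to 0.63 (edgeR, adjusted p = 0.862). Its neighbour Maoa, the other monoamine oxidase, stood at 80.1 ± 15.3 and 94.9 ± 25.5 CPM, a log2 difference of 0.24 (adjusted p = 0.781, edgeR).

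None of the 10 other enzymes around GABA and its relative GHB was called (edgeR). The list holds Glud1, Odc1, Sat1, Sat2, Aldh9a1, Aldh1a1, Hibadh, Adhfe1, Akr7a5 and Maoa, and 8 of the 10 log2 differences were above 0, with a median of 0.24. Over all 16451 genes tested 8488 were above 0, with a median of 0.02. Sat1, the most abundant of them in CPM, an acetyltransferase of polyamines, read 301 CPM on average with AAV-GFP and 317 with AAV-A2A. Of the 10, 2 had groups without overlap, a share near the 19.6% of all genes tested. Sat2 was higher with AAV-A2A (36.2 CPM on average with AAV-GFP against 60.8, log2 difference 0.75, edgeR, adjusted p = 0.218). Odc1 was lower (54.4 against 49.5 CPM, log2 difference -0.14, edgeR, adjusted p = 0.855).

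The 4 receptor subunits did not differ between vectors beyond the spread of the libraries. Gabbr1 (ENSMUSG00000024462, chr17:37045966-37075067) read 76.8, 68.0 and 86.4 CPM with AAV-GFP and 76.1, 76.4 and 90.4 with AAV-A2A, a log2 difference of 0.07 with a 95% interval of -0.33 to 0.48 (edgeR, adjusted p = 0.943). Gabbr2 (ENSMUSG00000039809, chr4:46662305-46991873) read 8.71, 13.7 and 7.13 CPM and 10.7, 10.4 and 7.09, a log2 difference of -0.06 with an interval of -0.89 to 0.77 (edgeR, adjusted p = 0.978). The 2 subunits pair in the receptor, yet per kb there were 4.28 to 10.4 Gabbr1 reads for each Gabbr2 read with AAV-GFP and 6.12 to 10.99 with AAV-A2A, so the imbalance was of like size under both vectors.

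Gabra2 (ENSMUSG00000000560, chr5:70957597-71095849) read 7.91, 22.3 and 17.0 CPM with AAV-GFP and 10.5, 13.5 and 14.6 with AAV-A2A. GFP-303 was the lowest and GFP-306 the highest of the 6, and the log2 difference of -0.29 had a 95% interval of -1.17 to 0.58 (edgeR, adjusted p = 0.857). Gabrb1 (ENSMUSG00000029212, chr5:71658113-72149037) read 312, 348 and 288 CPM with AAV-GFP and 330, 309 and 457 with AAV-A2A, a log2 difference of 0.21 with an interval of -0.22 to 0.64 (edgeR, adjusted p = 0.764). Without A2A-313, its highest library, the log2 difference was 0.01.

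Gabra2 and Gabrb1 belong to a gene cluster on chromosome 5 with Gabrg1 and Gabra4. Gabrg1, the γ1 subunit, stood at 132 ± 16.5 CPM with AAV-GFP and 183 ± 57.3 with AAV-A2A, and Gabra4, the α4 subunit, at 27.7 ± 9.91 and 37.1 ± 6.75. Neither was called (log2 differences 0.47 and 0.42, edgeR, adjusted p = 0.477 and 0.657). Gabra4 and Gabrb1 overlap by 46 exon bases on opposite strands. Of the CPM per kb summed over 13 GABA-A subunits, Gabrb1 took 47.8% ± 1.43 with AAV-GFP, Gabrg1 35.0% ± 0.817, Gabra4 9.46% ± 3.01 and Gabra2 4.32% ± 1.91. Together these 4 took 95.5 to 97.6% with AAV-GFP and 94.9 to 97.8% with AAV-A2A.

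**Figure D2:**
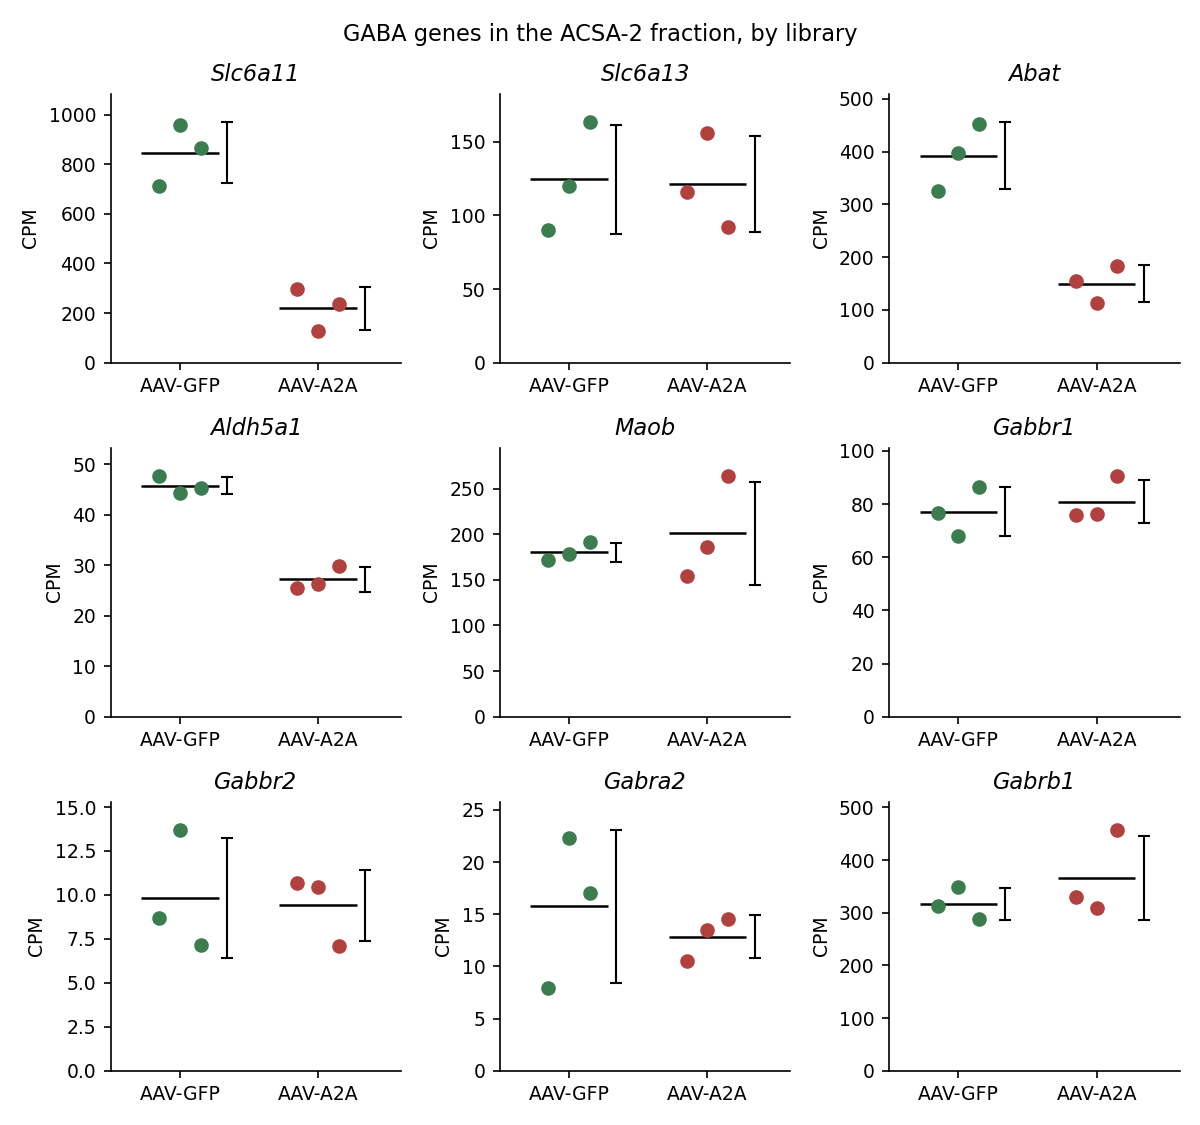
Level of each of the 9 genes in the ACSA-2 fraction, in CPM on a linear axis from 0, with 1 point for each of the 3 AAV-GFP and 3 AAV-A2A libraries, a line at the mean and a bar of ± 1 SD beside it. Slc6a11, Abat and Aldh5a1 show separate groups, and the other 6 genes overlap.

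**Figure D3:**
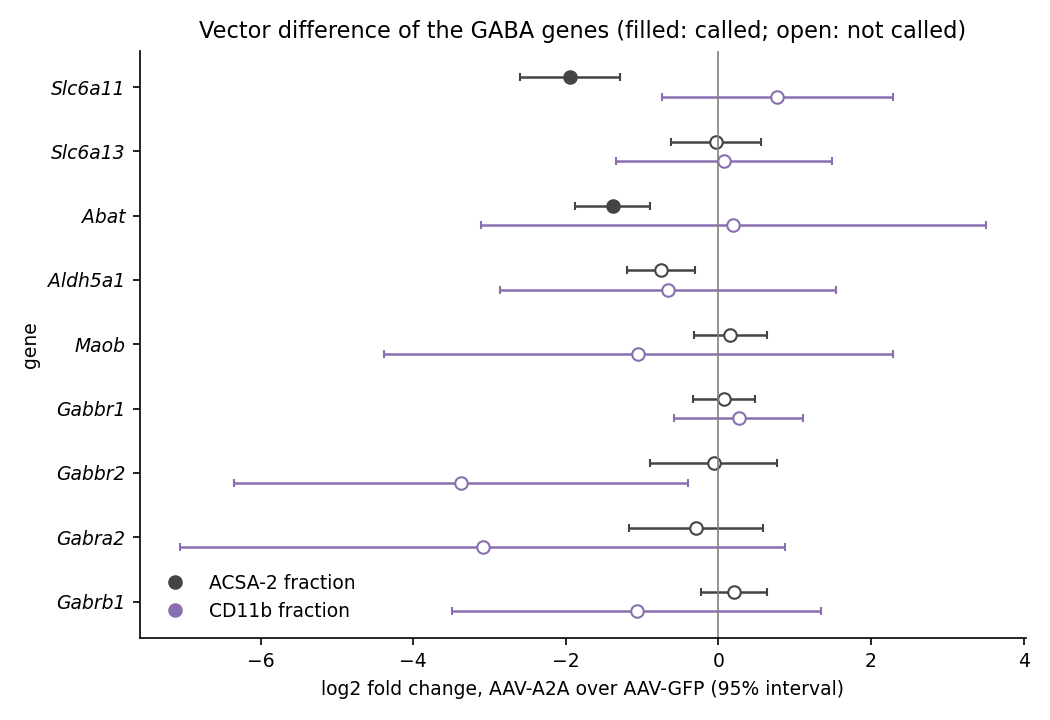
Log2 fold change of each gene, AAV-A2A over AAV-GFP, with its 95% interval, in the ACSA-2 (dark) and CD11b (violet) fractions, filled where called by edgeR. The filled points are Slc6a11 at -1.95 and Abat at -1.39 in the ACSA-2 fraction, and the CD11b intervals are wider.

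Beyond the 9 genes, 52 others around GABA were listed in 7 groups, of which 39 were tested in the ACSA-2 fraction. Of the 39, 2 were lower in AAV-A2A (Gphn and Nsf) and 0 were higher, with 7 at an unadjusted p under 0.05. Over all genes tested 3.19% were lower and 13.0% had such a p, so both counts were near the background. DESeq2 called the same 2 lower and none of the 39 higher. Of the listed genes outside the 39, DESeq2 called Kcnj9 higher. Kcnj9 was near the floor, at most 0.0297 CPM with AAV-GFP, with a median of 0.194 and a maximum of 3.59 CPM with AAV-A2A. The median log2 difference of the 39 was 0.19, beside 0.02 over all genes tested. Gphn, gephyrin, which anchors inhibitory receptors at synapses, read 260, 309 and 228 CPM with AAV-GFP and 64.1, 71.3 and 99.6 with AAV-A2A, a log2 fold change of -1.76 (edgeR, adjusted p = 0.00306). Nsf, the ATPase that takes SNARE complexes apart and binds GABA-A receptor partners, read 210, 367 and 286 CPM and 97.5, 63.9 and 87.0, a log2 fold change of -1.80 (edgeR, adjusted p = 0.00465). Both groups were without overlap, and both genes are in the list of 9 on receptor scaffold and trafficking, where 7 were not called. Dbi, the most abundant of that list, which encodes the diazepam binding inhibitor, stood at 1935 ± 411 CPM with AAV-GFP and 2724 ± 508 with AAV-A2A (log2 difference 0.49, edgeR, adjusted p = 0.371).

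The machinery of GABA neurons was close to 0 in this fraction. Gad1 and Gad2, which make GABA from glutamate, read at most 2.20 and 0.681 CPM in any ACSA-2 library, and Slc32a1, which loads it into vesicles, at most 0.133 CPM. Of the 15 other GABA-A and GABA-C subunits 7 were tested and none called. None was called among the 4 tested GABA-B auxiliary subunits and channels or among the 6 chloride carriers and channels, in which Clcn2 was the most abundant at 32.8 CPM with AAV-GFP and 44.7 with AAV-A2A (log2 difference 0.44, edgeR, adjusted p = 0.472). Kctd12b, the most abundant of the former, read 6.08 and 7.44 CPM.

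**Figure D4:**
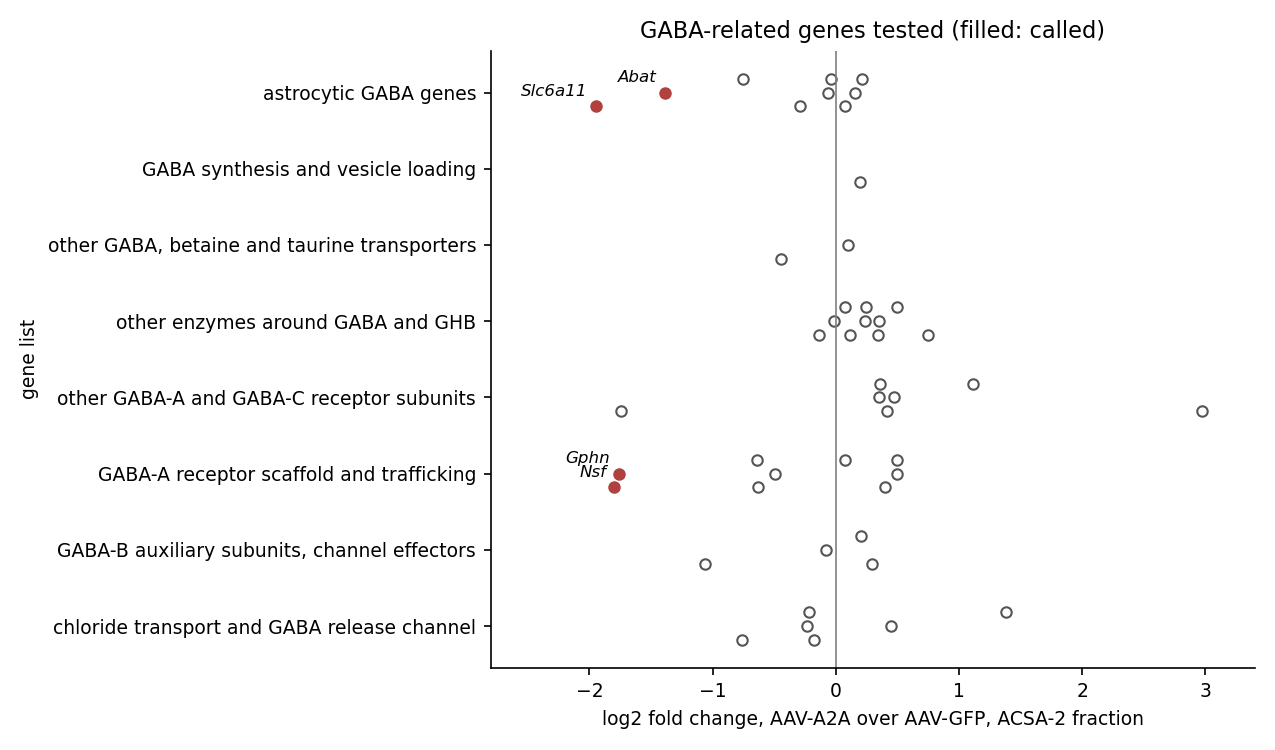
Log2 fold change in the ACSA-2 fraction, AAV-A2A over AAV-GFP, of the 9 genes (top line) and of the 39 tested genes of the 7 other GABA lists, with 1 point for each gene, filled and named where called by edgeR. The 4 filled points, Slc6a11, Abat, Gphn and Nsf, all lie left of 0.

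Markers of other cells were compared over the same libraries. None of the 12 astrocyte markers was called, and none of the 9 tested pan-neuronal markers, which summed to between 72.3 and 133 CPM with AAV-GFP and between 59.1 and 105 with AAV-A2A. Of the 4 tested oligodendrocyte precursor markers, Cspg4 was called lower, and the 6 listed summed to between 214 and 353 CPM with AAV-GFP and between 85.2 and 126 with AAV-A2A, with no overlap. Cspg4, the most abundant of that list, averaged 255 CPM with AAV-GFP and 56.5 with AAV-A2A, so the gap between the sums was mainly that of Cspg4. The median log2 difference of the 4 tested was -0.16. Of the 8 endothelial markers Flt1 was called lower, and the 8 summed to between 472 and 544 CPM and between 284 and 550. None of the 6 ependymal, 8 choroid plexus and 5 tested interneuron markers was called. The ependymal markers summed to between 1133 and 1556 CPM with AAV-GFP and between 492 and 1856 with AAV-A2A, lowest in A2A-313. The choroid plexus markers summed to between 559 and 616 CPM and between 611 and 1023. The astrocyte sum was 40083 CPM in A2A-313 and at most 28499 in the other 5 libraries, and Maob, Gabbr1 and Gabrb1 also had their highest value in A2A-313. The part of these shifts in the values of the 9 genes was not tested.

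In the CD11b fraction 4 of the 9 genes, Abat, Aldh5a1, Maob and Gabrb1, were higher in each Ttr-rich library than in every other library, under either vector. The same held for 20.6% of the 16949 genes tested. None of the 9 was called (edgeR), and none of 16949 genes was, which is 0%, with 2704 genes (16.0%) and 1 of the 9, Gabbr2, at an unadjusted p under 0.05. DESeq2 called 502 of 30359 genes (1.65%), with Gabbr2 among them, and limma-voom none. Abat read 189, 107 and 13.7 CPM in GFP-2328, GFP-2329 and GFP-2331, and 10.7, 19.7 and 324 in A2A-2343, A2A-2344 and A2A-2347. Its high values were those of the 3 Ttr-rich libraries, 107 to 324 CPM, against 10.7 to 19.7 in the others. Maob behaved alike, at 133 to 204 CPM in the Ttr-rich libraries and 6.24 to 12.9 in the others, as did Gabrb1 (20.2 to 33.9 against 2.94 to 4.47) and Aldh5a1 (11.3 to 14.96 against 1.34 to 3.73). Gabra4 (11.5 to 17.6 against 0.304 to 0.934) was also separate. The part of choroid plexus cells in these values was not tested.

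Slc6a11, Gabbr1 and Slc6a13 were not raised in the Ttr-rich libraries. Slc6a11 read 3.86, 2.77 and 1.27 CPM with AAV-GFP and 2.26, 6.03 and 5.23 with AAV-A2A, and Gabbr1 22.8, 17.8 and 17.9 and 14.9, 29.8 and 25.7. Slc6a13 was highest in GFP-2331, at 45.1 CPM, and lowest in GFP-2328 and GFP-2329, at 10.5 and 13.2. For these the log2 differences between vectors were 0.77 (95% interval -0.74 to 2.28), 0.27 (-0.58 to 1.11) and 0.07 (-1.35 to 1.49). The intervals of Abat (-3.11 to 3.50) and Maob (-4.39 to 2.28) were wider and held both a fall and a rise of several fold.

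Gabbr2 and Gabra2 were sparse in the CD11b fraction. Gabbr2 had 66, 79 and 48 counts with AAV-GFP and 4, 0 and 16 with AAV-A2A, and Gabra2 had 34, 48 and 12 counts and 9, 0 and 0. A count of 0 allows up to 3 counts, which is 0.0849 CPM in A2A-2344 and 0.0552 CPM in A2A-2347, for counting error only. All AAV-A2A libraries were below all AAV-GFP libraries for both genes, and 23.4% of all genes tested had groups without overlap, a share near 2 of 9. Gabbr2 had a log2 difference of -3.38 with edgeR (adjusted p = 0.288) and -3.42 with DESeq2 (adjusted p = 0.0459). The 10 neuronal markers summed to between 29.8 and 191 CPM with AAV-GFP and between 15.4 and 50.8 with AAV-A2A, with overlap, and their part in the Gabbr2 values was not tested. With the Ttr-rich libraries as a term, or without them, which leaves GFP-2331 alone on its side with its spread assumed like that of the other group, none of the 9 was called (edgeR). With that term the vector differences were 0.65 (SE 0.378) for Abat, -0.45 (SE 0.302) for Maob, -0.18 (SE 0.480) for Aldh5a1 and -0.05 (SE 0.407) for Gabrb1, with smaller errors than without it. It was 1.17 (SE 0.640) for Slc6a11, 0.33 (SE 0.360) for Gabbr1, 0.00075 (SE 0.348) for Slc6a13, -3.33 (SE 1.13) for Gabbr2 and -3.53 (SE 2.18) for Gabra2. Without the Ttr-rich libraries the differences were 1.71 for Slc6a11, -0.81 for Slc6a13, 0.16 for Abat, -0.42 for Aldh5a1 and -0.78 for Maob. For the receptor subunits they were 0.33 for Gabbr1, -4.39 for Gabbr2, -1.28 for Gabra2 and 0.39 for Gabrb1.

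**Figure D5:**
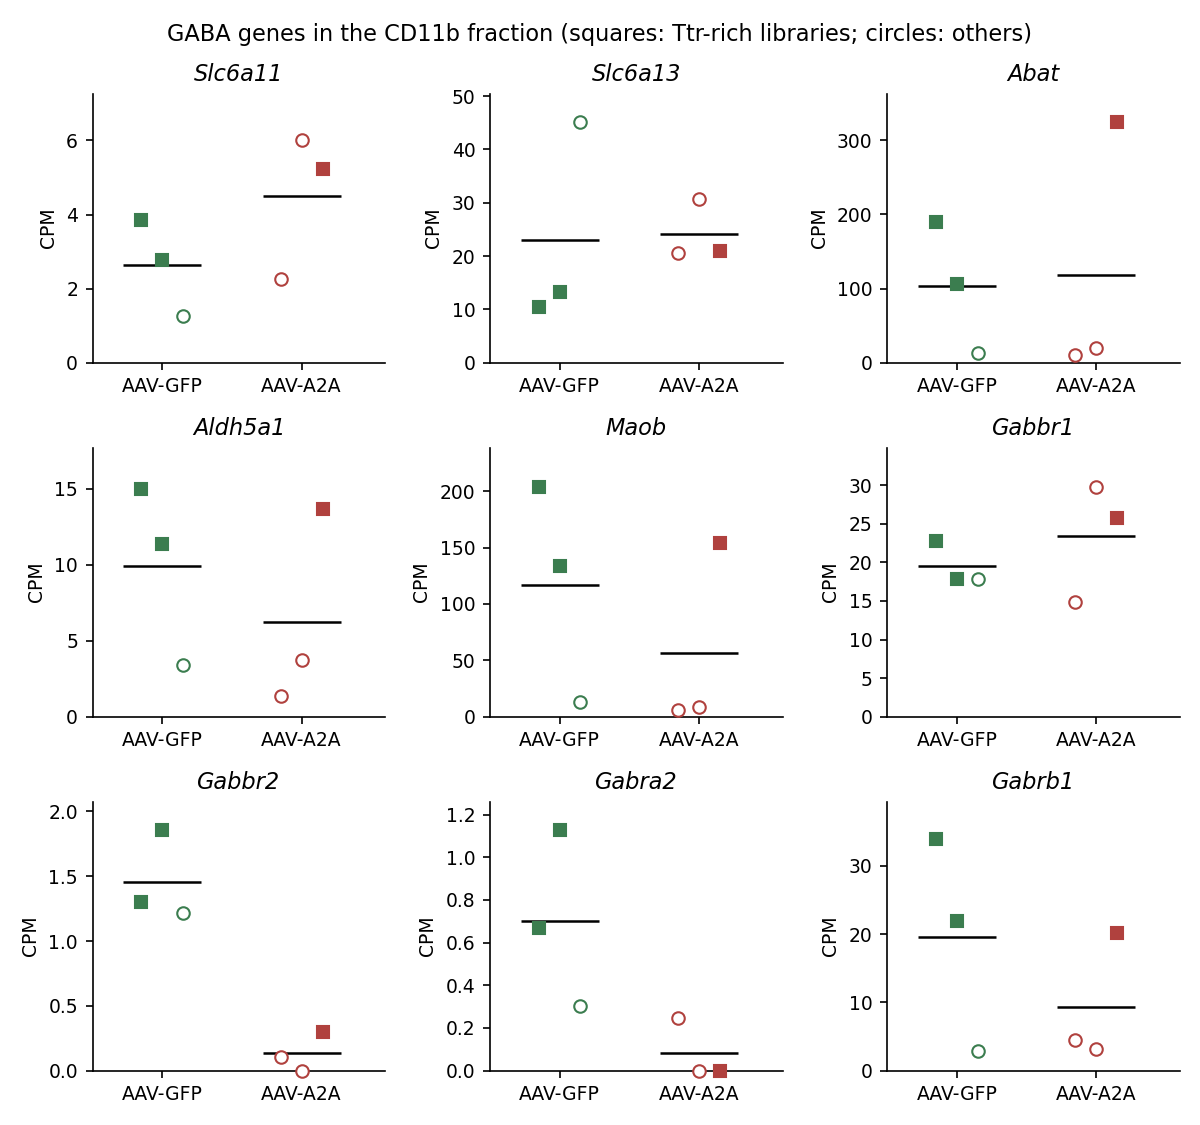
Level of each of the 9 genes in the CD11b fraction, in CPM on a linear axis from 0, with 1 point for each of the 3 AAV-GFP and 3 AAV-A2A libraries and a line at the mean. Filled squares are the 3 Ttr-rich libraries, which hold the 3 highest values of Abat, Aldh5a1, Maob and Gabrb1.

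The comparison of the ACSA-2 with the CD11b fraction asks which of the genes were higher in the astrocyte-enriched fraction. It used 1 fit of all 12 libraries. The fraction cannot be told apart there from anything else that differed between the ACSA-2 and CD11b sets. The labels do not say whether both fractions came from the same animals, and the libraries were treated as independent. With AAV-GFP 7 of the 9 were higher in the ACSA-2 fraction, all but Maob and Abat, against 12.3% of 18602 genes tested. As the 9 were chosen as astrocytic GABA genes, this share is a description and not a test, as is that with AAV-A2A below. The ACSA-2 fraction also held mural marker transcripts, so a higher level there does not assign a gene to astrocytes. Slc6a11 differed most, by 8.38 ± 0.618 (SE) on the log2 scale, or 334-fold (edgeR, adjusted p = 9.42e-06). Gabra2 was higher by 4.54, Gabrb1 by 4.09, Gabbr2 by 2.80, Slc6a13 by 2.45, Aldh5a1 by 2.28 and Gabbr1 by 2.03. Abat was higher by 2.00 (95% interval -0.36 to 4.36, adjusted p = 0.19) and Maob by 0.71 (-1.57 to 2.98, adjusted p = 0.649), and neither passed the edgeR test. Without the 3 Ttr-rich libraries Abat was higher by 4.801 and Maob by 3.76 (edgeR, adjusted p = 0.000117 and 0.000155), with GFP-2331 the only CD11b library left for AAV-GFP. Abat was also called on leaving out A2A-2347 alone (edgeR, adjusted p = 0.0454). Without the 3 Ttr-rich libraries Slc6a11 was higher by 9.33, Gabrb1 by 6.70, Gabra2 by 5.63, Aldh5a1 by 3.71, Gabbr1 by 2.07 and Slc6a13 by 1.42, all still called. The call of Gabbr2 was lost without those 3 libraries (2.97, edgeR, adjusted p = 0.056) and on leaving out GFP-306, GFP-2328, GFP-2329 or GFP-2331 alone (0.054 to 0.0721), and that of Aldh5a1 on leaving out GFP-303, GFP-306, GFP-307, GFP-2329 or GFP-2331 alone (0.0617 to 0.082) and with library totals in place of TMM (adjusted p = 0.066).

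With AAV-A2A the same 7 genes were called higher in the ACSA-2 fraction, against 21.0% of genes tested. Slc6a11 was higher by 5.60 ± 0.546 (SE) on the log2 scale, or 48.6-fold (edgeR, adjusted p = 3.28e-05), and so kept a wide margin over the CD11b fraction after its fall. Gabra2 was higher by 7.27, Gabbr2 by 6.09, Gabrb1 by 5.35, Slc6a13 by 2.32, Aldh5a1 by 2.18 and Gabbr1 by 1.78. Gabra2 had 0 counts in A2A-2344 and A2A-2347, and its difference was 12.07 without A2A-2343, so its size is not fixed by these counts. Without the 3 Ttr-rich libraries Slc6a11 was higher by 5.63, Gabbr2 by 7.24, Gabra2 by 6.56, Gabrb1 by 6.46, Aldh5a1 by 3.32, Slc6a13 by 2.14 and Gabbr1 by 1.76, all still called. Abat differed by 0.44 (95% interval -1.84 to 2.72) and Maob by 1.93 (-0.42 to 4.28). Without A2A-2347, the only Ttr-rich library of that group, both were called, at 3.23 and 4.67 (edgeR, adjusted p = 0.00888 and 0.00195). The call of Aldh5a1 was lost without A2A-313 or without A2A-2344 (log2 differences 2.11 and 1.94, edgeR, adjusted p = 0.0508 and 0.0822).

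Whether the vector effect differed between fractions was tested as an interaction. None of the 9 was called in that fit (edgeR), beside 0.403% of the 18602 genes tested, while 2 of the 9 had an unadjusted p under 0.05, a share near the 19.6% of all genes tested. DESeq2 called 2 of the 9, beside 6.84% of 25442 genes, and limma-voom none. For Slc6a11 the effect in the ACSA-2 fraction less that in the CD11b fraction was -2.78 (95% interval -4.20 to -1.36, edgeR, adjusted p = 0.0701), and for Abat -1.56 (-4.80 to 1.67, adjusted p = 0.597). Slc6a11 was called by DESeq2 (adjusted p = 0.00399), with at least 10 counts in every library (edgeR, 0.0476), without A2A-2343 (0.0244) and without GFP-2331 (0.0376). Slc6a11 was not called without the 3 Ttr-rich libraries (-3.71, edgeR, adjusted p = 0.204), nor with limma-voom (-2.84, adjusted p = 0.113). Gabbr2 was called by DESeq2 alone, and Gabra2 only without A2A-2343, where the AAV-A2A side of the CD11b fraction was at 0 counts.

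The genes whose levels ran most like the 3 members with a transport or first degradation role were found over the 12 libraries, among 10767 genes of at least 5 CPM on average in the ACSA-2 fraction. For Slc6a11 they were Sox8 (Pearson r of log2 CPM 0.989), Atp1b2 (0.988) and Gli3 (0.988). Slc6a13 ran most like Ednra (0.9752), Vtn (0.9748), which is the most abundant of the mural markers, and Kcnmb1 (0.971), and Abat most like Aph1b (0.979), Mapre3 (0.974) and Itgb8 (0.971). The 12 points share 2 fractions and the Ttr-rich split, so they are not independent.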

How the data were processed

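The deposited values are raw counts of reads per Ensembl gene. The authors amplified 500 pg to 1 ng of total RNA with SMART-Seq v4 and Nextera XT, trimmed reads with cutadapt 1.10, aligned them with STAR 2.5.3 to mm10 (GRCm38) and counted uniquely placed reads with HTSeq 0.6.1p1. The strand setting is not given in the sources used here. The 2 tables, 1 for each fraction, hold 6 libraries each, and the 25 unnamed columns of the CD11b table are empty. Identifiers without an annotation held 0.00469 to 0.0956% of counts. Reads carry no molecular identifiers, so intervals and floors cover counting error only. Genes were matched to GENCODE vM21.

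Each fraction was fitted alone, and fractions were compared in 1 fit of 12 libraries, with edgeR 4.0.16 (TMM, filterByExpr, robust quasi-likelihood) in R 4.3.3. A gene was called at a Benjamini-Hochberg adjusted p under 0.05 and a log2 change over 0.32 in size, the study's thresholds. CPM values are scaled by TMM within a fraction, and length is merged exon. No pair of libraries of a group agreed within sampling noise. Alternatives were DESeq2 1.42.0, limma-voom (limma 3.58.1), other scalings and filters, a length and GC offset, 1 joint fit and each library left out. The scripts were tested on simulated data. Settings on Ttr-rich libraries (over 10000 CPM) were chosen after seeing the data.

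The 9 genes and all lists were chosen with earlier results of these data known. Named besides them are genes called in a vector comparison, the most abundant gene of a list, Slc6a12, Gad1, Gad2, Slc32a1, Maoa, Gabra4, Gabrg1 and Adora2a, and the 3 genes most like Slc6a11, Slc6a13 and Abat. Sat2 and Odc1 were described after their values were seen. A few genes were left out of the lists and are not reported here.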

Additional observations from a re-analysis of the deposited data

How the results depend on the processing

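No paired analysis was made. Within a fraction the vector groups share no replicate number. Between fractions the numbers are of different kinds, since those of the ACSA-2 libraries match the library names and those of the CD11b libraries do not. They cannot show whether animals were shared between fractions. For the ACSA-2 fraction the 9 genes held 2 calls under every alternative but DESeq2, with 3, and the fit of all 12 libraries, with 0, where Slc6a11 and Abat had the same direction (log2 -1.97 and -1.42, adjusted p = 0.0883 and 0.839, edgeR). Without the 3 Ttr-rich CD11b libraries that joint fit, now of 9 libraries, called both (adjusted p = 0.0343 and 0.0368, edgeR). All genes called there were 553, and 1277 with DESeq2, 156 in the 12-library fit, 337 in the 9-library fit and 272 to 448 with 1 library left out. In the CD11b fraction DESeq2 called 502 genes and 1 of the 9, and the fit without the Ttr-rich libraries called 3 genes. For the difference of vector effects the calls among the 9 were 0, and 2 with DESeq2, 1 with at least 10 counts in every library and 0 to 2 with 1 library left out.

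Reversed directions were all of uncalled values. In the ACSA-2 fraction, with the length and GC trend removed, Maob was at -0.046 and Gabbr2 at 0.24. With 1 library left out, Slc6a13 ranged from -0.26 to 0.20, Maob from -0.093 to 0.317, Gabbr1 from -0.022 to 0.155, Gabbr2 from -0.26 to 0.25 and Gabra2 from -0.63 to 0.044. In the CD11b fraction Abat was at -0.43 with the length and GC trend removed and at -0.59 with limma-voom, Gabbr1 at -0.35 with the trend removed, and, without the Ttr-rich libraries, Slc6a13 at -0.81 and Gabrb1 at 0.39. With 1 library left out, Slc6a13 ranged there from -0.27 to 1.02 and Abat from -2.75 to 0.98. Abat between fractions in AAV-A2A ranged from -0.11 to 3.23, and its difference of vector effects from -2.33 to 1.23. The cause of these reversals was not tested. Of 825 single-gene values under alternatives 771 kept their direction and side of the threshold. Over the 9 genes the standard errors of the vector difference were 0.356 to 1.67 in the CD11b fraction and 0.180 to 0.389 in the ACSA-2 fraction.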
